A study of Saccharomyces cerevisiae with 12 samples.

Results

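The genes described here encode 45 proteins of the small-subunit processome and early 40S ribosome assembly in budding yeast, out of 6697 genes counted. They were taken by name: the UTP proteins, the proteins of the box C/D and U3 small nucleolar ribonucleoproteins, the Mpp10 complex and further 90S and 40S assembly factors with NSR1. The rule for membership used no measured value, but the genes and their roles were chosen with earlier results of these data known. All 45 passed the filter on low counts that left 5719 genes for testing. Ribosome footprints, the stretches of mRNA shielded by translating ribosomes, were counted per gene. All cells were of the W303 Ade+ strain and carried an mCherry tag on Ded1, a DEAD-box helicase that acts when ribosomes start on mRNA. The tagged gene was Ded1-mCherry in the strain called WT and Ded1_IDRm-mCherry in the strain called IDRm, and cultures of each were held for 10 min at 30, 40 or 42 °C. This gave 6 groups of 2 libraries. Replicates started from duplicate pre-cultures, and a main culture was divided over the temperatures. The p-values therefore measure the spread between these libraries, which were treated as independent.

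The small-subunit processome is the large nucleolar particle that forms on the growing ribosomal RNA precursor and carries out the first folding, modification and cleavage steps toward the 40S subunit. The UtpA and UtpB complexes bind the start of the transcript, the U3 small nucleolar RNA with its proteins pairs with it, and the Mpp10 and UtpC complexes, a GTPase, RNA helicases and many single factors join later. In yeast these genes are known as a co-regulated group that falls when growth slows or stress begins. Many of their promoters hold a short element called PAC, with the letters GATGAG, and an A- and T-rich element called RRPE, with the letters AAAATTTT.

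Windows of 300 bases, from 250 bases upstream of the start codon to 50 bases inside the gene, were read from the RefSeq R64 genome, which is the S288C reference and not the W303 strain itself. Both strands were searched, where the other strand of GATGAG reads CTCATC and AAAATTTT is its own reverse complement. PAC was present in 40 of 45 windows (88.9%) and in 20.3% of the windows of 6020 protein-coding genes, and in UTP4 its only match lay inside the gene. RRPE was present in 35 (77.8%) against 9.0%, and both together in 33 (73.3%) against 4.4%. The heat shock element, searched as TTCNNGAA, was in 9 of the 45 windows (12.8% of all windows held it), and the stress response element AGGGG was in 5 (11.1%, against 21.6%). Upstream PAC matches started 67 to 229 bases before the start codon (median 112.5, 54 matches) and RRPE matches 33 to 225 bases before it (median 133, 43 matches). In the 32 genes with both upstream, the closest pair started 7 to 42 bases apart (median 16).

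Windows are printed for NSR1 and KRR1, the genes that fell most and least in WT at 40 °C, for UTP9, the gene with the next largest fall, and for UTP22, which held neither element. UTP9 and UTP22 were picked for printing after their values were seen. Each is written 5′ to 3′ on the strand of its gene, with PAC and RRPE letters in capitals. Positions in R64 are chrVII:807607-807906 on the minus strand for NSR1, chrIII:23330-23629 on the minus strand for KRR1, chrVIII:491681-491980 on the plus strand for UTP9 and chrVII:662108-662407 on the plus strand for UTP22.
NSR1: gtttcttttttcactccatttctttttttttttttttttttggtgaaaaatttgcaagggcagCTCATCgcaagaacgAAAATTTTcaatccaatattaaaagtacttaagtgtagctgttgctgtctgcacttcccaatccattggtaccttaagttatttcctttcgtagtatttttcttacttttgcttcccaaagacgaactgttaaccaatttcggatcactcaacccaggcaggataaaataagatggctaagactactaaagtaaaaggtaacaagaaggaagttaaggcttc
KRR1: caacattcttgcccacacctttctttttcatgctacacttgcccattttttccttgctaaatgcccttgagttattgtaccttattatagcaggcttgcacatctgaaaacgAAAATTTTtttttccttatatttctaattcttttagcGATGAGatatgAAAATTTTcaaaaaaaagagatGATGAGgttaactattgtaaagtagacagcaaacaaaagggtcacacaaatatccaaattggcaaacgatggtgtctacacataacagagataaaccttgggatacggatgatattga
UTP9: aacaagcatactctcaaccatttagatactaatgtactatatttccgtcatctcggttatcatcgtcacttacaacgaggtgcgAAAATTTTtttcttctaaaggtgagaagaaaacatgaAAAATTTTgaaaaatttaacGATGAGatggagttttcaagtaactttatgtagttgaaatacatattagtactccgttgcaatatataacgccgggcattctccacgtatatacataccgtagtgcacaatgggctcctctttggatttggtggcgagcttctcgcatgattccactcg
UTP22: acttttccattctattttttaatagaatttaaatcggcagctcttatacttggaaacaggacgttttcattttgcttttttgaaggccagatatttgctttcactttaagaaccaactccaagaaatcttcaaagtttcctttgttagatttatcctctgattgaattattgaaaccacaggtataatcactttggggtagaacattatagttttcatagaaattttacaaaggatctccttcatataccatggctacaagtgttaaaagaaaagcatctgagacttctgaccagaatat
NSR1 held 1 PAC at 187 and 1 RRPE at 172 bases before the start codon, and KRR1 held PAC at 101 and 68 bases and RRPE at 138 and 90 bases. UTP9 held PAC at 109 and RRPE at 166 and 129 bases. NSR1 and KRR1, with the largest and smallest fall in WT at 40 °C, both held both elements. In IDRm at 40 °C the smallest fall was that of RRP7 (−0.91), which held RRPE but no PAC. Whether the elements bear on the size of the fall was not tested.

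Library totals ran from 3429950 to 7851819 counts, and across genes the Pearson r between replicates was 0.9894 to 0.9942 for log2 CPM, the scaled library share of a gene. Replicate libraries still differed by more than sampling noise, with chi-square values of 1.45 to 5.37 per degree of freedom. DED1 was read at 1052 to 1457 CPM in all 12 libraries, and its counts do not show which allele a library carried. The 4 a-cell genes summed to 296.1 to 918.3 CPM. Of 3 alpha-cell genes only STE3 passed the filter on low counts, and it was read at 0.541 to 14.2 CPM. STE3 was higher at 40 than at 30 °C, by 3.93 ± 0.35 (log2, SE) in WT and 2.06 ± 0.28 in IDRm. At 30 °C it was higher in IDRm than in WT by 1.69 ± 0.47. These changes of STE3 rest on very low 30 °C levels, 0.973 and 0.541 CPM in WT and 2.47 and 3.02 CPM in IDRm. No gene of the set overlaps another annotated gene in R64, and only NOP58 shares 28-base stretches with another coding sequence (0.331% of them). Fewer mRNAs and fewer ribosomes per mRNA cannot be told apart from footprints alone, and a level is always relative to the rest of its library.

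Together the 45 genes took their largest share of all footprints at 30 °C, far less at 40 °C, and a share in between at 42 °C that was lower in IDRm than in WT. The share in WT was 0.902% and 1.01% of counts (30 °C), 0.151% and 0.178% (40 °C) and 0.635% and 0.592% (42 °C). In IDRm it was 1.21% and 1.08% (30 °C), 0.152% and 0.14% (40 °C) and 0.424% and 0.419% (42 °C). No library of any temperature overlapped those of another temperature in the same strain. IDRm lay above WT at 30 °C and below it at 42 °C in both libraries, and the strains overlapped at 40 °C. With 2 libraries against 2 the smallest two-sided exact permutation p is 0.333, so these shares carry no test. Heat-inducible chaperone genes, a list of 20, moved the other way: they summed in WT to 4376 and 5831 CPM (30 °C), 141404 and 139313 CPM (40 °C) and 71416 and 70884 CPM (42 °C). The IDRm sums were 4708 and 5662, then 151379 and 160652, then 89986 and 90610 CPM. The part of this rise in the lower share of the processome genes was not tested. Without the 10 most abundant genes the mean share was 1.11% in WT at 30 °C, 0.207% at 40 °C and 0.724% at 42 °C.

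**Figure D1:**
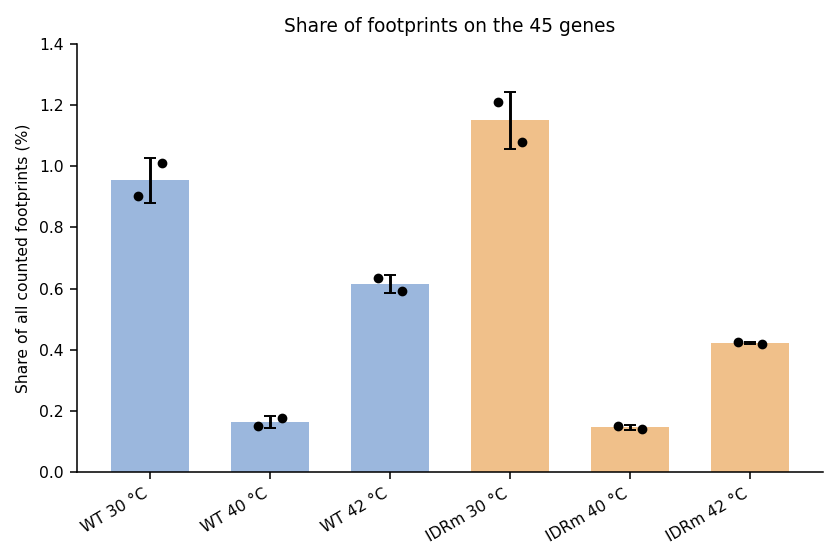
Share of all counted footprints on the 45 genes, in percent, by strain and temperature. Bars are means, error bars SD (n = 2) and points single libraries. The 40 °C libraries sit between 0.14% and 0.178%, below all others, and at 42 °C IDRm (0.424% and 0.419%) sits below WT (0.635% and 0.592%).

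Per kilobase of coding sequence, the median of the 45 genes was 73.0 CPM in WT at 30 °C, 9.18 at 40 °C and 47.4 at 42 °C. In IDRm it was 91.1, 8.57 and 33.5 CPM per kilobase. At 30 °C in WT the levels per kilobase ran from 61.6 to 70.4 CPM over the 6 UtpB subunits, from 73.0 to 89.8 CPM over the 7 UtpA subunits and from 83.6 to 96.0 CPM over the 3 Mpp10 genes. UtpC was less even, from 34.3 CPM per kilobase for RRP36 to 87.4 for RRP7. The box C/D proteins, which also serve all other box C/D RNAs, stood above them, with SNU13 at 1190 CPM per kilobase, whereas the U3-specific RRP9 was at 46.0. At 40 °C the UtpA subunits ran from 2.0 CPM per kilobase for UTP9 to 54.9 for NAN1.

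In WT at 40 °C every one of the 45 genes had fewer footprints than at 30 °C. All 45 were called lower and none higher by edgeR's quasi-likelihood test with a Benjamini-Hochberg adjusted p no higher than 0.05, where 39.5% of all 5719 genes were called lower and 36.1% higher. The median log2 change was −3.06, against −0.02 over all genes tested, with a range of −6.61 to −0.61. Of the called genes 41 fell at least 2-fold, where 1066 of all 5719 genes did. In each of the 45 genes both 40 °C libraries lay below both 30 °C libraries, which was not counted over all genes. The fall was uneven. UtpA had a median of −3.66 over 7 genes, UtpB −3.44 over 6, the GTPase, helicases and enzymes −3.26 over 7, the box C/D and U3 proteins −3.14 over 5, UtpC −2.74 over 3, the 14 other factors −2.42 and the Mpp10 complex −2.25 over 3.

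At 42 °C in WT the genes were again mostly below their 30 °C level, but far less so than at 40 °C. Of the 45, 36 were called lower and 2 higher, where 33.6% of all genes were lower and 30.0% higher. The median log2 change was −0.60 (all genes −0.03), and 10 genes fell at least 2-fold, where 495 of all 5719 genes did. The genes not called were UTP23, UTP11, NOC4, FAF1, RRP5, NAN1 and ECM16, with changes between −0.23 and 0.00. UTP7, a WD-repeat factor, was higher by 0.36 ± 0.10 (SE, adjusted p = 0.00265) and KRR1 by 0.27 ± 0.09 (adjusted p = 0.00808). Neither of these rises was called without the first WT library at 30 °C, where they were 0.19 (adjusted p = 0.161) and 0.20 (adjusted p = 0.103). Between 40 and 42 °C all 45 genes were called higher at 42 °C, where 29.8% of all genes were, with a median of 2.39 and a range of 0.39 to 4.09. The comparisons of 40 and of 42 °C with 30 °C share the 30 °C libraries, and those with 40 °C share the 40 °C libraries.

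In the IDRm strain the median level was again lowest at 40 °C and in between at 42 °C. At 40 °C all 45 genes were called lower (39.9% of all genes were), with a median of −3.47 and a range of −7.01 to −0.91. At 42 °C 44 were called lower and none higher (36.7% and 36.8% of all genes), with a median of −1.54. Of these 35 fell at least 2-fold, where 900 of all 5719 genes did. UTP7 alone was not called, at −0.18 ± 0.10 (adjusted p = 0.113). From 40 to 42 °C 42 genes were called higher (27.3% of all genes were), with a median of 1.90. The others, BMS1, UTP20 and NAN1, changed by 0.21, 0.00 and −0.05.

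**Figure D2:**
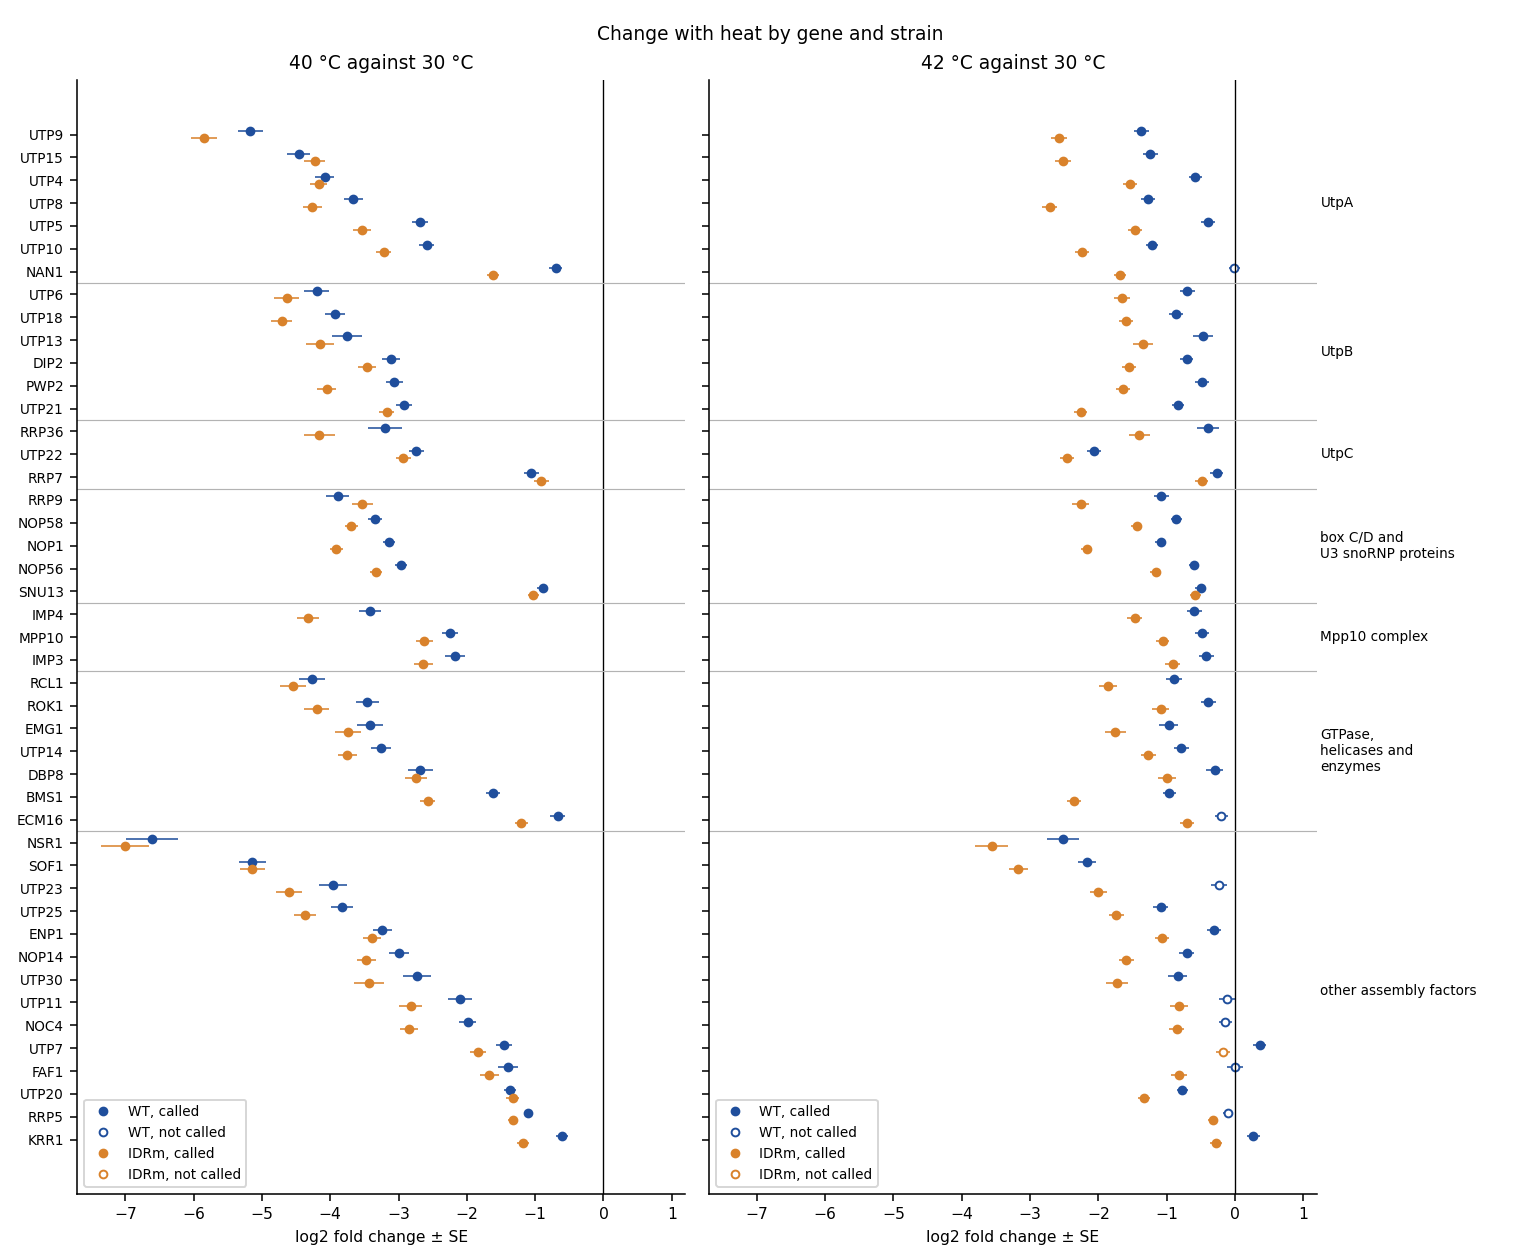
Log2 fold change ± SE of each gene at 40 and 42 °C against 30 °C in WT and IDRm, grouped by role. Filled points passed the test (adjusted p no higher than 0.05). At 40 °C all points are left of 0 in both strains, and at 42 °C the IDRm points lie left of the WT points, with medians of −1.54 and −0.60.

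UtpA, the complex that opens assembly at the start of the transcript and whose subunits are also linked to ribosomal RNA transcription, changed by −5.17 to −0.70 in WT at 40 °C. Gene positions below are those of R64. UTP9 (YHR196W, chromosome VIII, 491931 to 493658) in WT had 121.8 and 130.3 CPM (30 °C), 3.34 and 3.56 CPM (40 °C) and 52.9 and 42.9 CPM (42 °C). In IDRm UTP9 had 161.0 and 140.1 CPM (30 °C), 3.18 and 1.99 CPM (40 °C) and 26.0 and 24.0 CPM (42 °C). The temperatures did not overlap in either strain, and both IDRm libraries at 42 °C were below both WT ones. Its log2 change at 40 °C was −5.17 ± 0.18 in WT (adjusted p = 2.1e-22) and −5.85 ± 0.19 in IDRm (adjusted p = 1.23e-23). The counts behind the 40 °C level were low, from 8 to 17 per library, so UTP9 at 40 °C could not be told apart between the strains at this depth (−0.42 ± 0.41, adjusted p = 0.504).

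NAN1 (YPL126W, chromosome XVI, 310210 to 312900), also named UTP17, is the UtpA subunit with the change nearest 0 in WT at both heated temperatures and in IDRm at 40 °C, but not in IDRm at 42 °C. In WT it had 236.1 and 247.4 CPM (30 °C), 135.0 and 160.3 CPM (40 °C) and 245.3 and 232.3 CPM (42 °C). In IDRm it had 325.8 and 302.9 CPM (30 °C), 110.0 and 93.8 CPM (40 °C) and 101.2 and 95.1 CPM (42 °C). In WT the 42 °C libraries overlapped those at 30 °C, whereas in IDRm they stayed at the 40 °C level. The change at 42 °C was −0.01 ± 0.08 in WT (adjusted p = 0.899) and −1.68 ± 0.09 in IDRm (adjusted p = 4.53e-17). Mean levels at 42 °C as a share of 30 °C were 98.8% in WT and 31.2% in IDRm. For the other UtpA subunits these shares ran from 38.0% for UTP9 to 75.5% for UTP5 in WT, and from 15.3% for UTP8 to 36.4% for UTP5 in IDRm.

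UtpB, whose subunits are mostly WD-repeat proteins that meet U3 and the leader of the transcript, changed by −4.20 to −2.92 in WT at 40 °C. UTP6 (YDR449C, chromosome IV, 1357580 to 1358902), the subunit with the largest fall there, had 84.9 and 97.4 CPM (30 °C), 4.46 and 5.23 CPM (40 °C) and 58.4 and 51.8 CPM (42 °C) in WT. In IDRm UTP6 had 119.1 and 104.6, 3.42 and 5.47, and 36.5 and 34.8 CPM. The strains overlapped at 40 °C alone. UTP21 (YLR409C, chromosome XII, 934414 to 937233), with the smallest fall there, had 194.7 and 202.5, 23.1 and 28.7, and 117.8 and 104.0 CPM in WT. Its IDRm levels were 277.2 and 240.3, 29.3 and 28.1, and 54.0 and 54.3 CPM. UTP21 was thus similar between the strains at 40 °C and lower in both IDRm libraries at 42 °C, where it stood at 20.9% of its 30 °C mean, against 55.9% in WT. In WT at 40 °C UTP6 changed by −4.20 ± 0.18 and UTP21 by −2.92 ± 0.12 (adjusted p = 3.04e-20 and 5.7e-21).

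UtpC, which joins after the first complexes, held genes with different courses. RRP36 (YOR287C, chromosome XV, 850937 to 851839), a small factor, had 26.8 and 35.2 CPM (30 °C), 2.78 and 3.56 CPM (40 °C) and 23.5 and 21.7 CPM (42 °C) in WT. In IDRm RRP36 had 62.2 and 49.3, 3.67 and 2.49, and 23.6 and 18.3 CPM. The strains were separate at 30 °C and overlapped at both heated temperatures. RRP7 (YCL031C, chromosome III, 64675 to 65568) had 78.4 and 77.9, 34.0 and 40.6, and 63.6 and 66.2 CPM in WT. In IDRm it had 78.1 and 78.4, 42.3 and 41.05, and 54.6 and 56.7 CPM, so RRP7 overlapped between strains at 30 °C. RRP36 changed by −3.20 ± 0.25 and RRP7 by −1.06 ± 0.11 in WT at 40 °C (adjusted p = 7.5e-13 and 3.05e-10).

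UTP22 (YGR090W, chromosome VII, 662358 to 666071), a large UtpC protein, rose little between 40 and 42 °C. It had 237.2 and 249.1, 31.7 and 40.0, and 58.5 and 57.8 CPM in WT, and 255.4 and 230.3, 31.3 and 32.4, and 40.9 and 47.8 CPM in IDRm. At 42 °C it stood at 23.9% of its 30 °C mean in WT and 18.3% in IDRm. Its change in WT at 42 °C was −2.06 ± 0.10 (adjusted p = 1.46e-18), the third largest fall after NSR1 and SOF1. Its values in each library are given because of its promoter and this course, a choice made after they were seen.

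Among the U3 and box C/D proteins, RRP9 (YPR137W, chromosome XVI, 802359 to 804080), which is specific to U3, fell most in WT at 40 °C and SNU13 (YEL026W, chromosome V, 101943 to 102323), which binds the kink-turn of box C/D RNAs and also U4 spliceosomal RNA, fell least. In IDRm at 40 °C NOP1 (−3.91) and NOP58 (−3.69) fell more than RRP9 (−3.53). In WT RRP9 had 73.9 and 84.4 CPM (30 °C), 5.85 and 4.81 CPM (40 °C) and 37.5 and 36.4 CPM (42 °C). In IDRm it had 113.0 and 99.0, 8.80 and 9.46, and 22.5 and 21.6 CPM. RRP9 was thus higher in both IDRm libraries at 30 and 40 °C and lower in both at 42 °C. SNU13 had 474.6 and 429.7, 223.0 and 265.1, and 315.0 and 327.7 CPM in WT. Its IDRm levels were 501.0 and 464.1, 241.6 and 229.9, and 323.6 and 319.8 CPM, and the strains overlapped at all 3 temperatures. In WT at 40 °C RRP9 changed by −3.89 ± 0.17 and SNU13 by −0.89 ± 0.08 (adjusted p = 6.51e-20 and 8.7e-12). The core proteins NOP1, the methyltransferase fibrillarin, NOP56 and NOP58 changed by −3.14, −2.96 and −3.34 in WT at 40 °C and by −1.09, −0.60 and −0.86 at 42 °C. In IDRm at 42 °C they changed by −2.17, −1.16 and −1.44.

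The Mpp10 complex, which holds U3 and the 18S sequences together, was represented by MPP10, IMP3 and IMP4. IMP4 (YNL075W, chromosome XIV, 485607 to 486479) had 74.3 and 71.7 CPM (30 °C), 6.68 and 6.90 CPM (40 °C) and 48.3 and 48.5 CPM (42 °C) in WT. In IDRm IMP4 had 112.6 and 95.3, 4.89 and 5.47, and 35.6 and 39.4 CPM. The libraries of the strains did not overlap at any temperature, with IDRm higher at 30 °C and lower at 40 and 42 °C, although the difference at 40 °C was not called (−0.39 ± 0.28, adjusted p = 0.344). IMP3 (YHR148W, chromosome VIII, 393534 to 394085) had 53.0 and 53.0, 10.0 and 13.2, and 38.9 and 40.4 CPM in WT. In IDRm IMP3 had 77.6 and 73.5, 11.2 and 12.9, and 42.8 and 37.5 CPM, and it overlapped between strains at both heated temperatures. In WT at 40 °C IMP4 changed by −3.42 ± 0.16 and IMP3 by −2.17 ± 0.15 (adjusted p = 5.34e-19 and 1.07e-14).

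The enzymes of the particle also differed widely. RCL1 (YOL010W, chromosome XV, 307938 to 309041), the cyclase-like partner of the GTPase BMS1, had 70.3 and 83.3 CPM (30 °C), 3.34 and 4.39 CPM (40 °C) and 37.7 and 45.01 CPM (42 °C) in WT. In IDRm RCL1 had 102.6 and 90.1, 4.16 and 3.98, and 28.6 and 24.3 CPM. It was lower in IDRm at 42 °C alone. ECM16 (YMR128W, chromosome XIII, 523696 to 527499), the helicase also called DHR1 that removes U3 from the particle, had 120.6 and 142.2, 75.7 and 87.2, and 120.2 and 105.7 CPM in WT. In IDRm ECM16 had 209.0 and 175.7, 84.8 and 82.6, and 118.9 and 117.2 CPM, so the strains were separate at 30 °C and overlapped at both heated temperatures. RCL1 changed by −4.26 ± 0.19 and ECM16 by −0.67 ± 0.11 in WT at 40 °C (adjusted p = 1.88e-19 and 1.49e-06). BMS1 itself changed by −1.62 ± 0.10 in WT and −2.57 ± 0.11 in IDRm at 40 °C, and by −0.96 ± 0.09 and −2.36 ± 0.10 at 42 °C. The DEAD-box helicases DBP8 and ROK1, the methyltransferase EMG1 and UTP14, the activator of ECM16, changed by −3.46 to −2.68 in WT at 40 °C and by −0.97 to −0.30 at 42 °C.

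Of the remaining factors, NSR1 (YGR159C, chromosome VII, 806412 to 807656), the yeast nucleolin-like protein that binds nucleolar RNA, had the largest fall of the set. In WT it had 309.8 and 450.2 CPM (30 °C), 3.34 and 4.18 CPM (40 °C) and 61.9 and 70.0 CPM (42 °C). In IDRm it had 727.1 and 581.4 CPM (30 °C), 7.09 and 2.99 CPM (40 °C) and 53.3 and 57.7 CPM (42 °C). The temperatures were far apart in both strains, while the strains overlapped at 40 °C, where 12 to 29 counts were read per library. NSR1 changed by −6.61 ± 0.38 in WT and −7.01 ± 0.35 in IDRm at 40 °C (adjusted p = 1.47e-06 and 5.59e-07). At 42 °C it changed by −2.52 ± 0.23 and −3.56 ± 0.24 (adjusted p = 4.22e-05 and 4.73e-06). The 40 °C mean was 0.99% of the 30 °C mean in WT and 0.77% in IDRm, and the change was also the most negative of all 5719 genes tested in both strains.

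KRR1 (YCL059C, chromosome III, 22429 to 23379), a KH-domain protein of the early particle, fell least in WT at 40 °C. In IDRm RRP7 (−0.91) and SNU13 (−1.03) fell less at 40 °C than KRR1 (−1.18). KRR1 had 114.4 and 123.0, 77.1 and 77.4, and 141.5 and 142.5 CPM in WT and 159.9 and 141.3, 65.04 and 68.2, and 124.3 and 123.5 CPM in IDRm. At 42 °C KRR1 was above both 30 °C libraries in WT and below both in IDRm, and the changes were 0.27 ± 0.09 and −0.28 ± 0.09 (adjusted p = 0.00808 and 0.00474). Without the first 30 °C library of the strain these changes were 0.20 in WT and −0.20 in IDRm, and neither was called. SOF1, a WD-repeat factor, changed by −5.14 ± 0.20 in WT and −5.14 ± 0.18 in IDRm at 40 °C, and by −2.17 ± 0.13 and −3.17 ± 0.14 at 42 °C. RRP5, which serves both ribosomal subunits, kept 46.6% of its 30 °C mean at 40 °C and 93.3% at 42 °C in WT, and 39.8% and 80.3% in IDRm. The factors UTP11, NOC4 and FAF1 had 42 °C libraries that overlapped those at 30 °C in WT, and all were called lower in IDRm at 42 °C, by −0.82, −0.85 and −0.82. UTP23 (YOR004W, chromosome XV, 333592 to 334356), a PIN-domain-like protein, had 61.4 and 66.0 CPM at 30 °C and 56.3 and 51.3 CPM at 42 °C in WT, and 95.8 and 85.1 and then 20.1 and 25.2 CPM in IDRm. Its 42 °C level was below 30 °C in each strain, but the call was made in IDRm, by −2.00 ± 0.13 (adjusted p = 6.36e-15), against −0.23 ± 0.12 in WT (adjusted p = 0.0877).

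**Figure D3:**
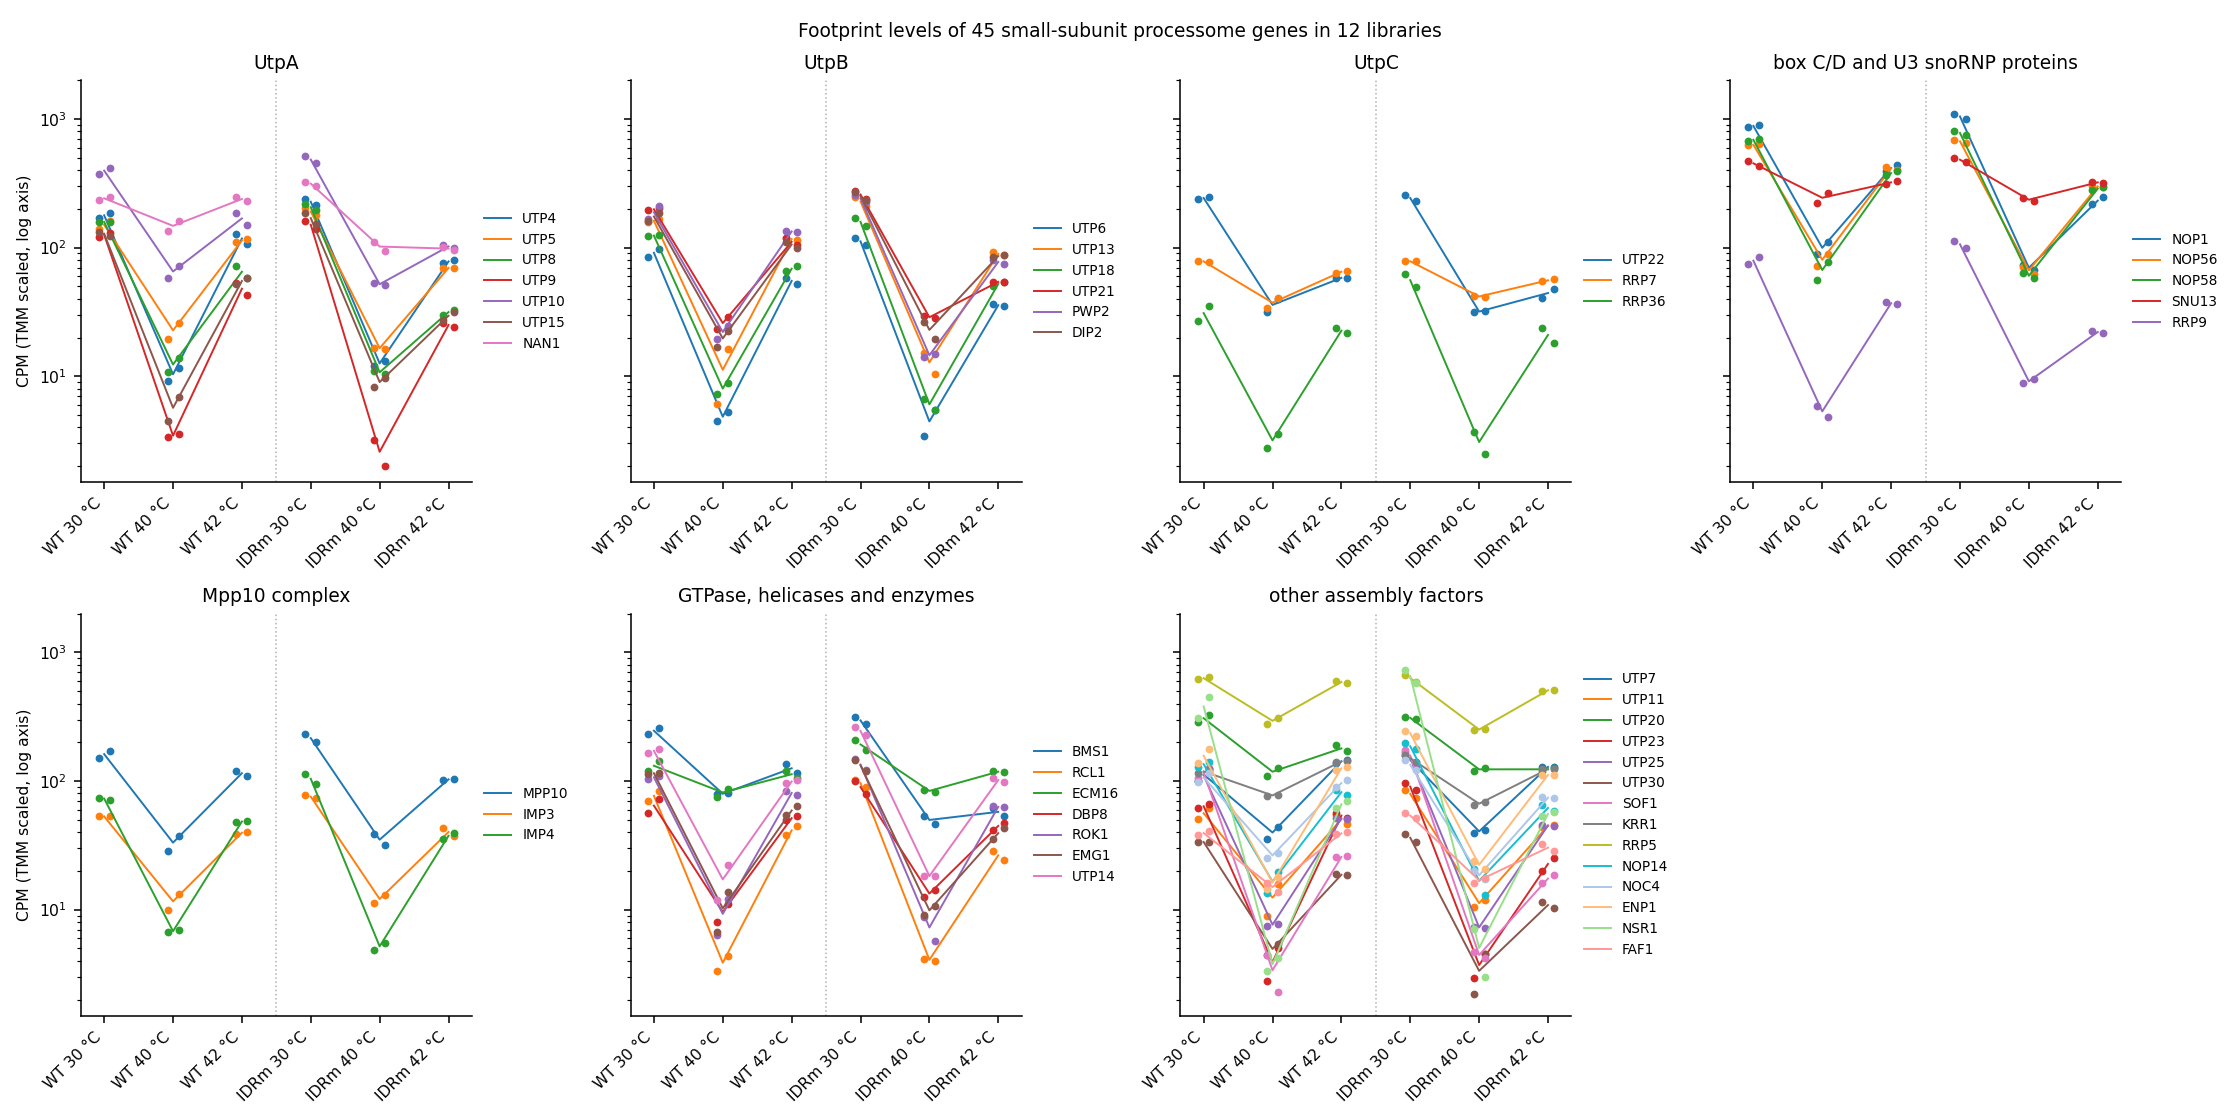
Scaled CPM of the 45 genes on a log axis, in panels by role. Points are single libraries and lines join group means (n = 2) within a strain. In WT each gene's 40 °C mean is the lowest of the 3 temperatures, from RRP36 at 2.78 and 3.56 CPM to RRP5 at 275.9 and 311.5 CPM, and so it is in IDRm except for NAN1.

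The genes of the set did not vary independently of each other between replicates. In IDRm at 30 °C 44 of the 45 were higher in the first library than in the second (median ratio 1.14). In WT 40 of 45 at 30 °C and 42 of 45 at 40 °C were lower in the first library (median ratios 0.924 and 0.805). In the other 3 groups 23 to 27 genes were higher in the first library. The counts of genes called are therefore not counts of independent observations, which bears most on the strain comparison at 30 °C.

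At 30 °C the processome genes were slightly higher in IDRm than in WT. Of the 45, 35 were called higher and none lower, where 9.58% of all genes were called higher and 6.75% lower, and the median difference was 0.38, or 0.00 over all genes, with no gene reaching 2-fold. RRP36 differed by 0.90 ± 0.14 (adjusted p = 2e-05), NSR1 by 0.80 ± 0.20 (adjusted p = 0.0343), ENP1, which stays with the particle to the cytoplasm, by 0.60 ± 0.09 (adjusted p = 2.61e-05) and ECM16 by 0.56 ± 0.10 (adjusted p = 9.12e-05). The genes not called were UTP9, EMG1, NOP58, NOP56, UTP22, UTP30, UTP20, RRP5, RRP7 and SNU13, all with differences from 0.00 to 0.26. The count fell to 15 without the first WT library, to 9 without the first IDRm library and to 21 in a fit of these 4 libraries alone. The share of all genes called higher fell with it, to 5.63%, 4.0% and 6.01%. The call of NSR1 was lost without the first IDRm library (0.63, edgeR adjusted p = 0.138). It was also lost, at much the same difference, with DESeq2 (0.80, adjusted p = 0.0763), with library size alone (0.76, adjusted p = 0.0528), with a replicate block (0.81, adjusted p = 0.0526) and in the 4 libraries alone (0.77, adjusted p = 0.251).

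At 40 °C the strains were close. Of the 45 genes, 8 were called lower in IDRm and 1 higher (14.5% and 11.4% of all genes), with a median of −0.07 and −0.01 over all genes. BMS1 was lower by −0.68 ± 0.12 (adjusted p = 5.41e-05), PWP2, a UtpB subunit, by −0.62 ± 0.19 (adjusted p = 0.0172), NAN1 by −0.54 ± 0.10 (adjusted p = 6.67e-05) and NOP1 by −0.53 ± 0.11 (adjusted p = 0.000407). UTP5, NOC4, NOP56 and RRP5 were the other 4, and RRP9 was higher by 0.79 ± 0.26 (adjusted p = 0.023). The count of lower genes fell to 3 without the second library of either strain and to 4 without the first IDRm library. The share of all genes called lower was then 8.68% without the second WT library, 8.8% without the second IDRm library and 9.38% without the first. RRP9 was not called without the second WT library (0.64) or without the first or second IDRm library (0.84 and 0.74), where its difference was of similar size. In these same fits PWP2 (−0.42, −0.58 and −0.66), UTP5, NOC4 and RRP5 were not called either. NOP56 was not called without the second library of either strain. At 40 °C 24 to 30 of the 45 genes had under 100 counts in a library, so small strain differences were not detectable for many of them.

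At 42 °C the genes were lower in IDRm. Of the 45, 30 were called lower and none higher (20.7% and 20.4% of all genes), with a median of −0.40 against 0.00 over all genes. At least 2-fold lower were 5 of them, and 215 of all 5719 genes. All 7 UtpA genes were called, with a median of −0.89, 5 of 6 UtpB genes (−0.51), 4 of 5 box C/D and U3 genes (−0.47), 4 of 7 enzymes (−0.36), 8 of the 14 other factors (−0.30), 1 of 3 UtpC genes (−0.22) and 1 of 3 Mpp10 genes (−0.16). NAN1 was lower by −1.28 ± 0.09 (adjusted p = 5.52e-13), UTP23 by −1.26 ± 0.14 (adjusted p = 7.52e-09), BMS1 by −1.13 ± 0.11 (adjusted p = 2.95e-10) and UTP8 by −1.06 ± 0.12 (adjusted p = 2.02e-08). SNU13 did not differ detectably (0.00 ± 0.08, adjusted p = 0.985). At the same temperature 8 of the 20 chaperone genes were called higher in IDRm and 1 lower, with a median of 0.33, and the part of this in the strain difference of the processome genes was not tested.

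**Figure D4:**
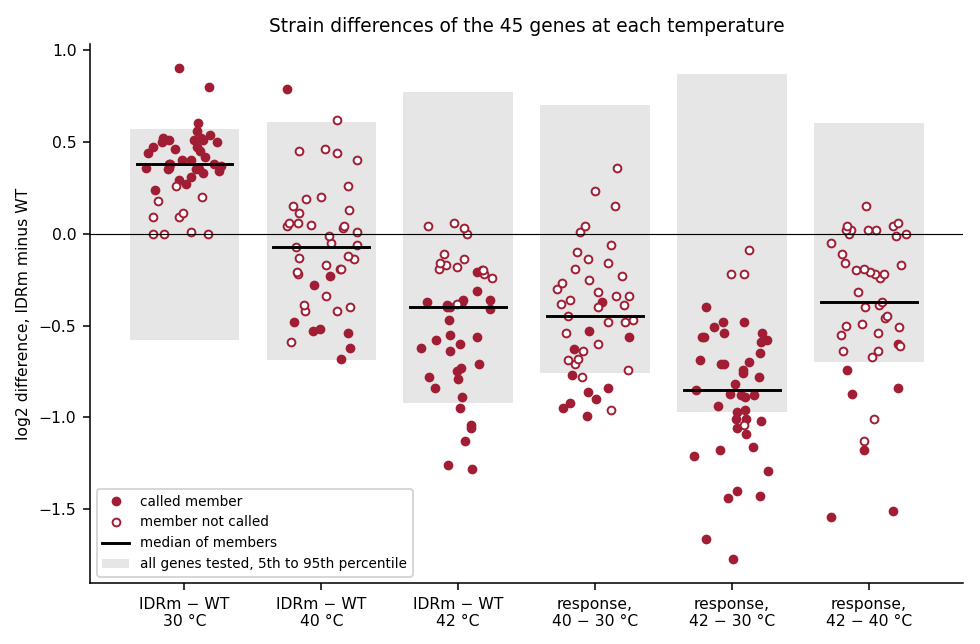
Log2 differences between IDRm and WT for the 45 genes by temperature, followed by how the responses differ (IDRm change minus WT change). Lines are medians and grey boxes the 5th to 95th percentile of all genes tested. The medians run from 0.38 at 30 °C to −0.40 at 42 °C, and the response from 30 to 42 °C has a median of −0.85.

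The difference between the strains' responses was tested as an interaction. For the step from 30 to 42 °C, 41 of 45 genes were called with a more negative change in IDRm and none with a more positive one (16.1% and 11.4% of all genes). The median was −0.85 against 0.01 over all genes. The response was at least 2-fold more negative in 14 genes, and in 223 of all 5719. The interaction is by construction the strain difference at 42 °C less that at 30 °C. It therefore holds both the higher 30 °C levels and the lower 42 °C levels of IDRm. UTP23 differed by −1.77 ± 0.18 (adjusted p = 2.83e-09), NAN1 by −1.66 ± 0.12 (adjusted p = 4.51e-12), UTP8 by −1.44 ± 0.15 (adjusted p = 8.8e-09) and UTP21 by −1.43 ± 0.14 (adjusted p = 1.04e-09). UtpA had the most negative median, −1.21 with all 7 called, and UtpC the least, −0.40 with 2 of 3 called. NSR1 (−1.04 ± 0.33, adjusted p = 0.0603), RRP5, RRP7 and SNU13 were not called.

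For the step from 30 to 40 °C, 11 genes were called with a more negative change in IDRm and none with a more positive one (8.52% and 3.81% of all genes), with a median of −0.45 and a range of −0.99 to 0.36. The other 34 were not called. The 11 called genes were led by PWP2 (−0.99 ± 0.21, adjusted p = 0.00154), BMS1 (−0.95 ± 0.15, adjusted p = 2.2e-05), NAN1 (−0.92 ± 0.13, adjusted p = 3.58e-06) and IMP4 (−0.90 ± 0.29, adjusted p = 0.0409). The count was 5 without the second WT library at 40 °C (5.32% of all genes), when PWP2 (−0.80) and IMP4 (−0.88) were not called. The call of IMP4 was lost in 7 of the 8 fits that left out a library and with DESeq2, at differences of −0.98 to −0.78. For the step from 40 to 42 °C, 7 genes were called as rising less in IDRm and none as rising more (3.85% and 6.24% of all genes), with a median of −0.37 and a range of −1.54 to 0.15. RRP9 differed by −1.54 ± 0.29 (adjusted p = 0.000697), UTP15, a UtpA subunit, by −1.51 ± 0.31 (adjusted p = 0.00133), UTP21 by −1.18 ± 0.19 (adjusted p = 6.18e-05) and UTP4, another UtpA subunit, by −0.87 ± 0.24 (adjusted p = 0.0179). The others were UTP8, NAN1 and UTP20. The calls of UTP4 and UTP8 were each lost in 5 of the 8 fits that left out a library, where UTP4 differed by −0.93 to −0.72 (adjusted p from 0.0535 to 0.109). The median difference for this step was −0.09 without the first WT library at 40 °C and −0.52 without the second.

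The order of the genes was much the same in both strains, whose responses share no library. Across the 45 genes the 40 °C changes of WT and IDRm had a Pearson r of 0.97 and a Spearman rho of 0.96, and over all 5719 genes 0.96 and 0.95. At 42 °C the values were 0.88 and 0.84 over the set and 0.91 and 0.89 over all genes. These are descriptions across genes, which are not independent replicates. Coding length (Pearson r of 0.10 with the WT change at 40 °C and −0.14 at 42 °C) and the IDRm level per kilobase at 30 °C (−0.10 and −0.16) were only weakly related to the change. The 5 genes with no PAC in the window, UTP15, UTP22, RRP7, EMG1 and UTP30, had a median WT change at 40 °C of −2.74 (range −4.46 to −1.06), and the 40 with PAC one of −3.08 (range −6.61 to −0.61). The 10 with no RRPE had a median of −3.54 and the 35 with it −2.99. The ranges overlapped in both cases.

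**Figure D5:**
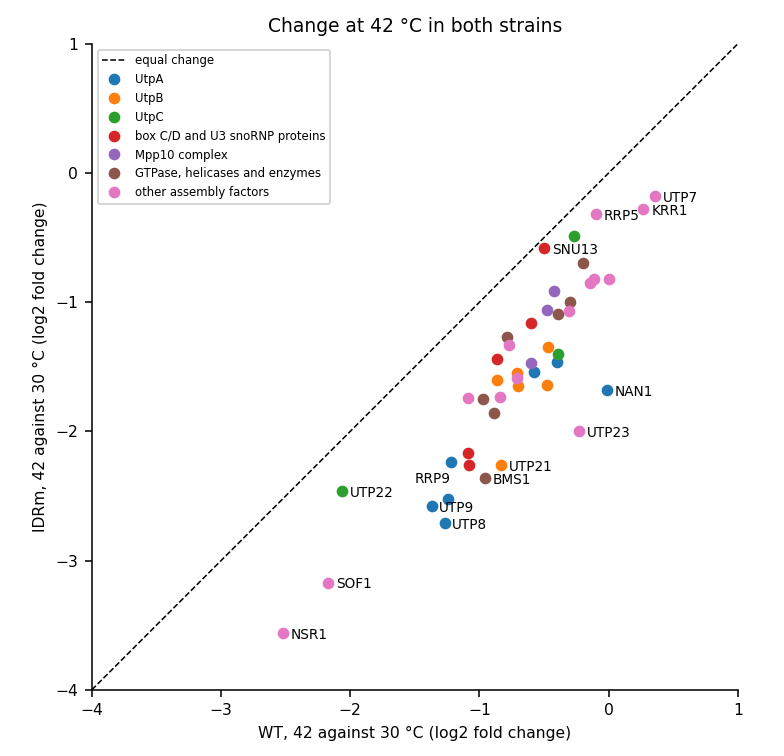
Log2 change from 30 to 42 °C of each gene in WT (x axis) and IDRm (y axis), coloured by role, with the line of equal change dashed. All points lie below the line, from SNU13, close to it, to UTP23 (−0.23 in WT and −2.00 in IDRm) and NAN1 (−0.01 and −1.68).

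Other genes of ribosome production were counted in the same way. Of 38 further 40S assembly factors, 37 were called lower in WT at 40 °C, where 39.5% of all genes were (median −1.71), among them BFR2 (−4.01 ± 0.18, adjusted p = 1.27e-19) and DHR2 (−3.63 ± 0.22, adjusted p = 1.47e-15), and 23 were lower and 3 higher at 42 °C, where 33.6% and 30.0% of all genes were (median −0.31). Of 69 factors of 60S assembly, 68 were lower at 40 °C (median −2.57), with CIC1 at −5.88 ± 0.18 (adjusted p = 4.78e-24) and REI1 at −5.48 ± 0.32 (adjusted p = 2.1e-12), and 53 were lower and 1 higher at 42 °C (median −0.57). All 8 genes of RNA polymerase I and its factor RRN3 were lower at 40 °C (median −2.50) and 6 at 42 °C (−0.57), and all 4 H/ACA proteins, partners of the pseudouridine-guiding RNAs, were lower at both (−3.54 and −0.90). Of 57 small-subunit ribosomal protein genes, 56 were lower at 40 °C, but by less (median −1.12), and 33 were lower and 3 higher at 42 °C (−0.17). Many of these have near-identical duplicates, so their single values are uncertain.

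The same lists were compared between strains. At 30 °C 55 of 69 60S factors and 29 of 38 further 40S factors were called higher in IDRm (medians 0.46 and 0.40), and 3 of 57 ribosomal protein genes (0.04), where 9.58% of all genes were. At 40 °C 14 of 69 60S factors and 3 of 38 further 40S factors were called lower in IDRm (medians −0.13 and 0.00), where 14.5% of all genes were. Of the ribosomal protein genes 40 of 57 were called lower there (median −0.33). At 42 °C 38 of 69 60S factors were called lower in IDRm (median −0.33), 12 of 38 further 40S factors (−0.14) and 23 of 57 ribosomal protein genes (−0.11, with 5 higher), where 20.7% of all genes were lower and 20.4% higher. The response from 30 to 42 °C was called more negative in IDRm for 61 of 69 60S factors (median −0.72) and 27 of 38 further 40S factors (−0.61, with 1 more positive), against 16.1% of all genes. PAC and RRPE occurred together in 69.6% of the 60S windows and 60.5% of those of the further 40S factors, and in 0.0% of the ribosomal protein windows.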

How the data were processed

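Counts of ribosome footprints per gene and library were used as deposited by the authors, with 1 column per library. Per the labels' protocols, RNA was obtained by hot acid phenol. Per the submitters' processing notes, bcl2fastq 2.17.1.14, cutadapt 1.17, Bowtie2 2.2.6, STAR 2.5.2b and the build R64 were used. Not given in the sources used here are their roles and order, the counting rule and the strand setting. Of 6697 identifiers 6014 were found in R64, and the other 683 held 0.04% to 0.112% of a library's counts.

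All 12 libraries were fitted together with edgeR 4.0.16 in R 4.3.3, with 1 mean per group, trimmed mean of M-values scaling, its expression filter (minimum count 10, total 15) and robust quasi-likelihood F tests (6 residual degrees of freedom). In each of 12 comparisons Benjamini-Hochberg adjustment ran over all 5719 genes, with calls made at 0.05. Levels are CPM on scaled library sizes, and standard errors are the absolute log2 change over the square root of F. The model was tested on simulated data, with gene levels averaged over the libraries. For WT at 40 against 30 °C it recovered 91% of 100 genes changed by 1 (log2) and 98% of 99 changed by 2. Of the 5634 genes tested there, 21 unchanged ones were called. For IDRm against WT at 40 °C it recovered 87.9% and 96%, and 11 unchanged genes were called.

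The 45 genes, their 7 roles and the other lists were chosen with earlier results of these data known. Library values are given for NSR1 and the genes with the largest and smallest fall of each role in WT at 40 °C. In the comparisons between strains and the interactions up to 4 leading called genes in each direction are named. In the other comparisons of temperatures the leading genes are not all named. From other lists at most 2 genes with the largest change at 40 °C in WT are named. UTP22 and UTP23 were added after their values were seen. Promoter windows were read from the RefSeq R64 genome. Alternatives were DESeq2 1.42.0 (its size factors or its Wald test), library size alone, no filter, a replicate block, the libraries of a comparison alone, a minimum of 2-fold and each library left out.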

Additional observations from a re-analysis of the deposited data

Results flagged for a closer look

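The strains' responses to heat differed in the tests of the difference itself, the interaction terms of edgeR's fit over all genes. For the step from 30 to 40 °C, 11 of the 45 genes were called with a more negative change in IDRm than in WT (8.52% of all genes were), and the largest differences were −0.99 for PWP2, −0.95 for BMS1, −0.92 for NAN1 and −0.90 for IMP4 (log2). For the step from 30 to 42 °C, 41 genes were (16.1% of all genes), led by −1.77 for UTP23, −1.66 for NAN1, −1.44 for UTP8 and −1.43 for UTP21. For the step from 40 to 42 °C, 7 genes were called as rising less in IDRm (3.85% of all genes), with −1.54 for RRP9, −1.51 for UTP15, −1.18 for UTP21 and −0.87 for UTP4. The calls of IMP4 from 30 to 40 °C and of UTP4 from 40 to 42 °C were lost in 7 and 5 of the 8 fits that left out a library. The first and second of these steps share the 30 °C libraries. The third shares the 40 °C libraries with the first and the 42 °C libraries with the second. It is by construction the second less the first.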

How the results depend on the processing

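The falls at 40 °C (45 of 45 genes in each strain) and the rise in WT from 40 to 42 °C (45 of 45) were called for all 45 genes under each alternative test and scaling and with each library left out. No gene's called change reversed under any alternative run. Requiring a change of at least 2-fold left 10 lower and 0 higher genes in WT at 42 against 30 °C (495 and 836 of all 5719 genes). Between strains it left 0 higher at 30 °C (38 of all genes) and 0 lower and 0 higher at 40 °C (72 and 74). At 42 °C it left 5 lower between strains (215 of all genes). A more negative response in IDRm was left for 0 genes from 30 to 40 °C (60 of all genes). It was left for 14 from 30 to 42 °C (223) and 3 from 40 to 42 °C (51).

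With each library left out in turn, WT at 42 °C gave 32 to 36 lower and 0 to 2 higher genes, and IDRm at 42 °C 43 to 45 lower. Between strains, 9 to 36 genes were higher at 30 °C, 3 to 10 lower and 0 to 1 higher at 40 °C, and 22 to 27 lower at 42 °C. The responses differed in 5 to 15, 36 to 43 and 5 to 11 genes. Where a group was left with 1 library, it was assumed to vary like the others. When only the 4 libraries compared were fitted, 21 genes were higher at 30 °C and 2 higher at 40 °C in IDRm (6.01% and 15.3% of all genes). At 40 °C, 5 were lower with DESeq2 size factors and 4 with its Wald test (12.3% and 8.34% of all genes). The cause of these moves was not tested.

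Over 4873 genes, same-numbered libraries of a strain did not deviate together (correlations of −0.0187 to 0.0637), so the numbers were not taken as pairs. This check was not made on the 45 genes alone. Of the 45, the first WT library was the lower one for 40 genes at 30 °C, 42 at 40 °C and 20 at 42 °C. In IDRm it was the lower one for 1, 18 and 22 genes. A replicate block gave 34 genes higher in IDRm at 30 °C and 30 lower at 42 °C (9.6% and 20.7% of all genes). It gave 11, 42 and 9 responses more negative in IDRm (9.41%, 16.5% and 4.39% of all genes). Library size alone moved the median of all genes by −0.24 in WT and −0.23 in IDRm at 40 against 30 °C. Without the 10 most abundant genes the shares were 1.11%, 0.207% and 0.724% in WT and 1.33%, 0.181% and 0.508% in IDRm at 30, 40 and 42 °C. On scaled library sizes they were 0.554% in WT at 42 °C and 0.164% and 0.41% in IDRm at 40 and 42 °C. Depth limited the 40 °C values, where the lowest count was 8.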
